A study of Mus musculus with 6 samples.

Results

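The genes described here encode axon guidance ligands and receptors: semaphorins, their plexin and neuropilin receptors, ephrins and Eph receptors, Slits and Robos, and netrins with their Unc5 receptors. They were taken by symbol from the array's annotation. The rule used no measured value, though it was chosen with earlier results of these data known. It gave 66 of the 19057 genes named on the array and 172 of its 45281 probes. Of these, 46 genes (74 probes) were among the 18420 brightest probes, which were tested. The remaining 20 genes lay below that limit and are listed without a main test. Each gene is represented by its brightest tested probe unless another probe is mentioned.

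The samples were sciatic nerves of mice at postnatal day 14, of both sexes, with 3 arrays of mutants and 3 of control littermates. Mutants carried a Cre transgene under the P0 promoter, whose gene encodes the chief structural protein of myelin in peripheral nerve. Their genotype is labelled P0 Cre Dicer F or N, and neither letter is explained. Dicer cuts microRNA precursors, and P0-driven Cre acts in Schwann cells, the glia that wrap peripheral axons, while a whole nerve also holds endothelial, mural, perineurial, fibroblast and immune cells and the axons themselves. The controls are labelled as littermates and abbreviated WT in the titles. Their alleles, and whether an array held 1 animal or a pool, are not given in the sources used here, so p-values measure the spread between these 6 samples, part of which may be technical.

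Axon guidance cues are secreted or membrane-bound proteins that attract or repel growing axons through receptors on the growth cone. Semaphorins act through plexins, and most secreted ones need a neuropilin as the binding partner. Ephrins sit in the membrane and bind Eph receptor tyrosine kinases on a neighbouring cell, Slits bind Robos, and netrins attract through Dcc-type receptors and repel through Unc5 receptors. In peripheral nerve the same families are used between Schwann cells, axons, fibroblasts and vessels, as for the sorting of Schwann cells by ephrin-B and EphB after injury.

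Values are the deposited normalized signals, on a log2-like scale from 7.96 to 15.91 with a median of 8.24, and every difference is mutant minus control on that scale. Near the low end such a difference may understate the change in RNA. Correlations over the tested probes were 0.973 to 0.995 within a group and 0.912 to 0.942 between the groups, and mutant replicate 1 stood apart from the other mutants on the second principal component (11.7% of the variance). Among markers of the cells a nerve can hold, Sox10 of the Schwann lineage was at 13.98 in mutants and 13.94 in controls and was not called. Erbb3 was at 8.37 in mutants and 8.32 in controls and was not called, while S100b was called lower (-1.19). The mean of these 3 Schwann markers was 10.34 to 10.47 in mutants and 10.74 to 10.87 in controls. Only S100b among them was lower in mutants, and their median difference was 0.035. Of the neuronal markers, 6 of 9 on the array were below the tested range and the other 3 were not called. Among tested markers, 1 of 6 mural, 2 of 8 fibroblast and perineurial and 1 of 7 macrophage genes were called higher and 0 lower. Over all genes tested, 22.0% were called higher and 17.6% lower. The mean of 6 skeletal muscle markers ran from 9.58 to 11.64 in mutants and 11.66 to 13.02 in controls, lowest in mutant replicate 3 and highest in control replicate 2, and none of the 6 was called. The part of either list in the results was not tested. Without mutant replicate 3 or without control replicate 2, the 7 axon guidance genes with differences of at least 1 all kept their calls. These fits did not remove the muscle difference. Mutant replicates 1 and 2 (11.64 and 11.38) still lay below every control, and control replicates 1 and 3 (11.72 and 11.66) above every mutant. The kept calls therefore do not bear on the part of muscle.

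In the mutant nerves, 25 of the 46 tested axon guidance genes changed (54.3%), 10 upward and 15 downward, at a limma adjusted p under 0.05. Over all 10273 genes tested in this comparison, 39.6% were called, 22.0% higher and 17.6% lower. The median difference of the 46 genes was -0.05, against 0.01 over all genes, and the median size without sign was 0.35, against 0.20. Differences of at least 1, the 2-fold threshold of the design text, were reached by 4 genes that fell (Sema5a, Slit2, Ntn5 and Sema4g) and 3 that rose (Efna5, Sema7a and Nrp2). Over all genes 5.57% were called with such a difference, 2.93% lower and 2.64% higher. In 32 of the 46 genes the mutant arrays all lay on one side of the control arrays, which held for 55.2% of all genes (29.7% with the mutants higher and 25.5% with the mutants lower). Counted by probe, 17 of the 74 tested probes were called higher and 25 lower, against 35.8% of all 18420 tested probes called, 19.9% higher and 15.9% lower. Slit2, Sema6c and Efna4 had mutant means below the brightness limit and passed it through the control arrays, so these counts describe the tested genes and not the families as a whole. In bulk nerve RNA, fewer cells of a type and less RNA per cell cannot be told apart.

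**Figure D1:**
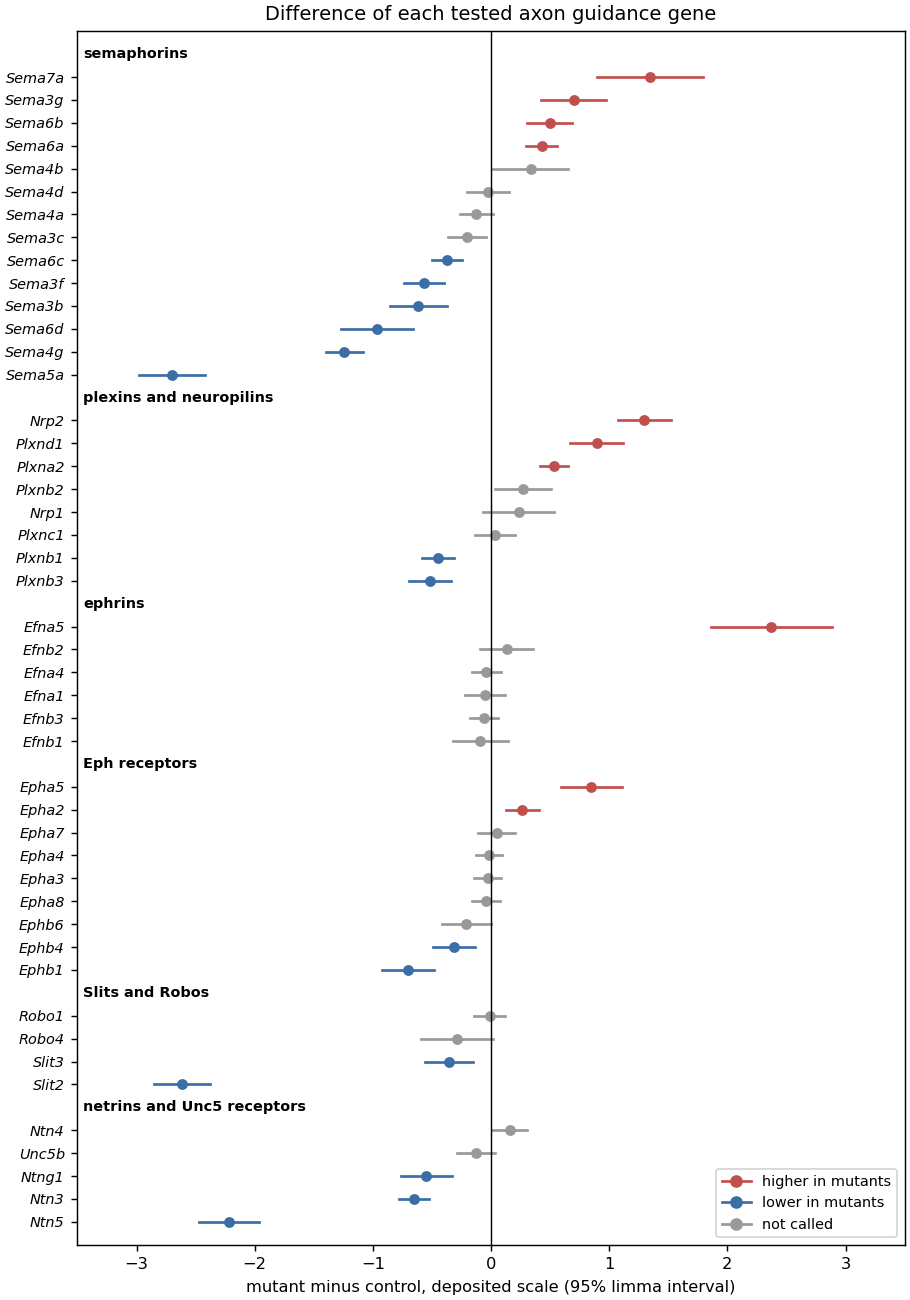
Difference of each of the 46 tested axon guidance genes between mutant and control nerves (x axis, deposited log2-like scale) with its 95% limma interval, grouped by family, with genes called higher in red, called lower in blue and not called in grey. Sema5a, Slit2 and Ntn5 lie below -2, and Efna5 is alone above 2.

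By role, 11 of 26 tested ligand genes fell (42.3%) and 5 rose (19.2%). Of 20 tested receptor genes, 4 fell (20%) and 5 rose (25%). All genes tested were called lower in 17.6% and higher in 22.0%, so the receptor shares were near those of all genes. Of the 7 genes past a difference of 1, 6 encode ligands and 1, Nrp2, a receptor, where the tested genes held 26 ligands and 20 receptors. The medians were -0.11 for ligands and -0.02 for receptors. The difference between these roles was not tested.

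Among the semaphorins, 6 of 14 tested genes fell (42.9%) and 4 rose (28.6%), against 17.6% and 22.0% of all genes tested. Sema5a, a transmembrane semaphorin with thrombospondin repeats that can attract or repel axons, changed most. Its brightest probe read 13.86, 13.94 and 14.00 in control replicates 1 to 3 and 11.19, 11.02 and 11.48 in mutant replicates 1 to 3. Every mutant array thus lay more than 2 below every control array. The difference was -2.70 (SE 0.118, limma adjusted p = 1.5e-05), the 27th largest fall among the 10273 genes, and a further Sema5a probe gave -2.82 (SE 0.111). The 3 remaining Sema5a probes, which were designed on sequences outside RefSeq, had means of 8.17 to 8.32 and were not tested.

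Sema4g, another transmembrane semaphorin, read 9.61, 9.50 and 9.67 in controls and 8.31, 8.32 and 8.42 in mutants. The mutant values sat close to the array median of 8.24, so the difference of -1.24 (SE 0.064, limma adjusted p = 3.13e-05) is measured against the low end of the scale. Sema6d, a transmembrane ligand of plexin-A1, had 11.56, 11.33 and 11.56 in controls and 10.76, 10.30 and 10.51 in mutants. It fell by 0.96 (SE 0.127, adjusted p = 0.00159). All 3 tested Sema6d probes were called lower, and with these averaged the difference was -0.53.

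Of the secreted class 3 semaphorins, Sema3b and Sema3f fell and Sema3g rose. Sema3b, a repellent acting through neuropilins, was at 12.10 ± 0.113 in mutants against 12.71 ± 0.167 in control nerves (mean ± SD, n = 3 arrays each), a difference of -0.62 (SE 0.101, adjusted p = 0.00394). Its next probe fell further, from 12.36 ± 0.013 to 11.15 ± 0.161, a difference of -1.21 (SE 0.085, adjusted p = 1.07e-04), and 4 of 5 tested Sema3b probes were called lower. Sema3f, the repellent that binds neuropilin-2, went from 10.22 ± 0.104 to 9.65 ± 0.071 (difference -0.57, SE 0.072, adjusted p = 0.00132), and both of its tested probes were called. Sema3g, a class 3 semaphorin known from endothelium, read 8.38, 8.42 and 8.53 in controls and 8.93, 9.37 and 9.12 in mutants. It rose by 0.70 (SE 0.114, adjusted p = 0.00391), with a second tested probe at 0.67. Sema3c was at 8.73 in controls and 8.53 in mutants and was not called (adjusted p = 0.0586).

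Sema7a, which is held in the membrane by a lipid (GPI) anchor and binds beta-1 integrin and plexin-C1, was the semaphorin with the largest rise. It read 10.09, 10.02 and 10.16 in controls and 11.01, 11.49 and 11.80 in mutants, with mutant replicate 1 lowest among the mutants and still above every control. The difference was 1.35 (SE 0.186, limma adjusted p = 0.00196) and 1.56 without mutant replicate 1. A dimmer Sema7a probe rose by 0.37 (SE 0.047), and with both averaged the difference was 0.86. Sema6b and Sema6a, transmembrane ligands of class A plexins, rose by 0.50 (SE 0.079) and 0.43 (SE 0.056), and Sema6c of the same class fell by 0.37 (SE 0.052) at values of 8.19 to 8.65. The remaining tested genes of class 4 were not called. Sema4b was at 11.24 ± 0.260 in mutants and 10.91 ± 0.105 in controls (adjusted p = 0.0957), a difference called with the replicate number as a block (0.0321) and without mutant replicate 1 (0.00463). Sema4a was at 10.39 and 10.52 (adjusted p = 0.158), and Sema4d at 8.43 and 8.46.

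**Figure D2:**
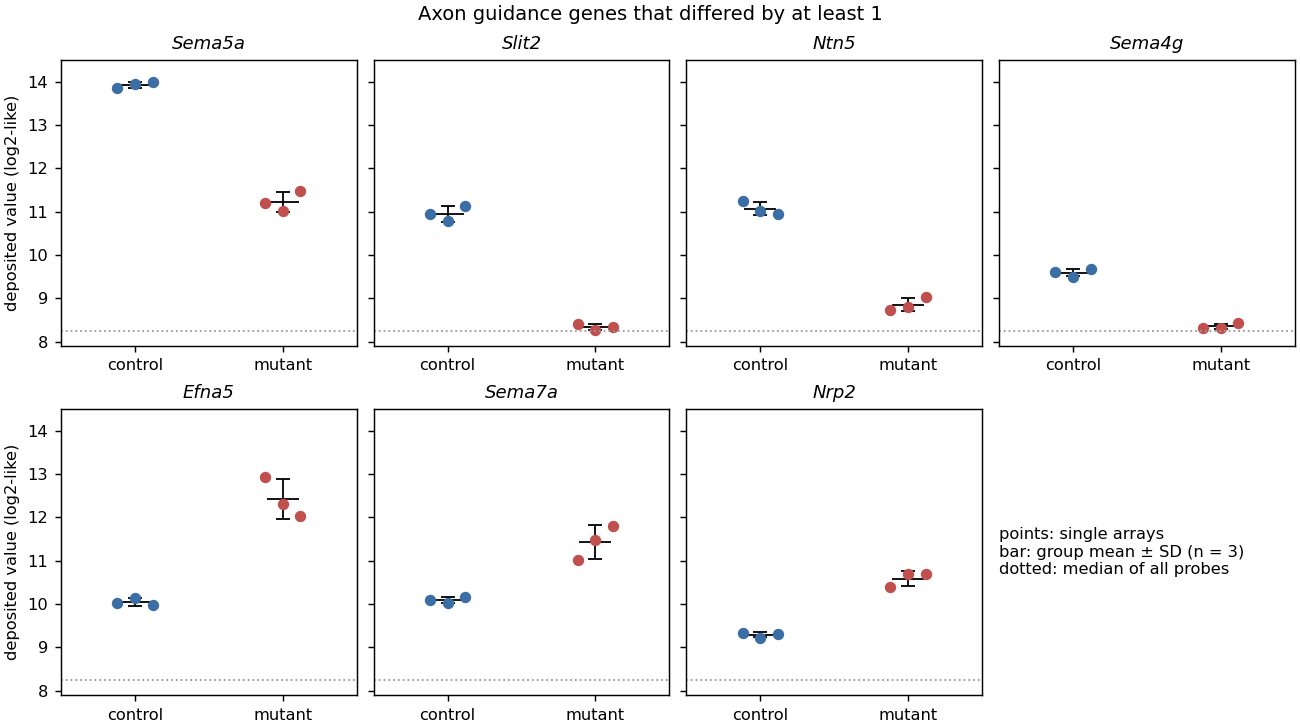
Deposited log2-like value (y axis) on each of the 3 control and 3 mutant arrays for the 7 axon guidance genes that were called with a difference of at least 1, with group means ± SD and, dotted, the median of all probes at 8.24. The mutant points of Slit2 and Sema4g lie close to that median, while Sema5a stays well above it in both groups, and in each gene the groups do not overlap.

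Among the ephrins, 1 of 6 tested genes changed (16.7%), against 39.6% of all genes tested. Efna5, a GPI-anchored ephrin that repels axons carrying EphA receptors, read 10.03, 10.14 and 9.97 in controls and 12.92, 12.31 and 12.03 in mutants. Mutant replicate 1 was the highest array, and the lowest mutant lay well above the highest control. Efna5 rose by 2.37 (SE 0.214, limma adjusted p = 3.02e-04), the 20th largest rise among all genes tested, and by 2.12 without mutant replicate 1. Its dimmer probe was below the tested range, with means of 8.36 in mutants and 8.18 in controls (adjusted p = 0.0231 with all probes tested). Efnb1, a transmembrane ephrin, was at 11.16 ± 0.120 in mutants and 11.25 ± 0.150 in controls (95% interval of the difference -0.32 to 0.14), and Efna1 at 9.19 and 9.25 (-0.22 to 0.12). Efnb2, the ephrin of arterial endothelium, Efna4 and Efnb3 lay between 8.31 and 8.87 on all arrays, with differences of 0.13, -0.04 and -0.06, and were not called.

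Both tested Slit genes were called lower on their brightest probes, against 17.6% of all genes tested. Slit2, a secreted repellent that signals through Robos, read 10.94, 10.77 and 11.14 in controls and 8.40, 8.26 and 8.34 in mutants. The mutant arrays were thus at or near the array median of 8.24, so that the difference is measured against the low end of the scale. The difference was -2.62 (SE 0.098, limma adjusted p = 9.3e-06), the 32nd largest fall of all genes. This rests on the RefSeq-derived probe. The 6 other Slit2 probes, all designed on other sequences, had means of 8.10 to 8.27 and lay below the tested range. With every probe of the array tested, 3 of the 6 were called lower, at -0.21, -0.10 and -0.10, and the other 3 were not called. Slit3 went from 9.56 ± 0.108 to 9.20 ± 0.123 (difference -0.36, SE 0.086, adjusted p = 0.0182). Leaving out control replicate 1 or control replicate 2 ended that call (adjusted p = 0.07 and 0.0685). The called Slit3 probe was designed on a sequence outside RefSeq. A dimmer tested probe, derived from RefSeq, went the other way, at 8.38 in mutants and 8.31 in controls. It was not called (difference 0.07, limma adjusted p = 0.33), and with it averaged in the difference was -0.14 (adjusted p = 0.126). Slit1 was below the tested range.

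Of the netrin genes, 3 of 4 tested fell, against 17.6% of all genes tested. Ntn5, a secreted protein related to the laminins, read 11.24, 11.01 and 10.95 in controls and 8.72, 8.81 and 9.02 in mutants, so that every mutant array lay far below every control. It fell by 2.22 (SE 0.107, limma adjusted p = 2.27e-05) and is read by a single probe. Ntn3, the netrin that like netrin-1 binds Dcc and Unc5 receptors, went from 9.73 ± 0.067 to 9.08 ± 0.0056 (difference -0.65, SE 0.053, adjusted p = 2.08e-04). A dimmer Ntn3 probe was not called (-0.16, adjusted p = 0.0531), and the average of both gave -0.40. Ntng1, a GPI-anchored netrin-G of axons that does not use the classical netrin receptors, fell by 0.55 (SE 0.089, adjusted p = 0.00395), and its 3 tested probes were all called lower. Ntn4, a netrin of basement membranes, was at 8.81 in mutants and 8.65 in controls and was not called (adjusted p = 0.0891).

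The promoters of the 3 genes with the largest falls and of the gene with the largest rise are shown because their differences exceeded 2 in size. Sequences are RefSeq's, build GRCm38.p6, on the strand of the gene, from 250 bases before to 50 bases after the annotated start. Capitals mark matches to GCGNGGGCG, the site of Egr factors, on either strand. The Slit2 promoter is chr5:47982905-47983204 (+), that of Sema5a chr15:32244563-32244862 (+), that of Ntn5 chr7:45683772-45684071 (+) and that of Efna5 chr17:62881268-62881567 (-).
Slit2: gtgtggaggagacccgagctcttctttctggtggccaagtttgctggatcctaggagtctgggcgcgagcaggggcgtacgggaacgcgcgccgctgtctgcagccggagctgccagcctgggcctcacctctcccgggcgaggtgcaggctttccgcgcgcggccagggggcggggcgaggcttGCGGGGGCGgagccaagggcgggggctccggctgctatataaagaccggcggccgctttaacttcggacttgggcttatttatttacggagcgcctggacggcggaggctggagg
Sema5a: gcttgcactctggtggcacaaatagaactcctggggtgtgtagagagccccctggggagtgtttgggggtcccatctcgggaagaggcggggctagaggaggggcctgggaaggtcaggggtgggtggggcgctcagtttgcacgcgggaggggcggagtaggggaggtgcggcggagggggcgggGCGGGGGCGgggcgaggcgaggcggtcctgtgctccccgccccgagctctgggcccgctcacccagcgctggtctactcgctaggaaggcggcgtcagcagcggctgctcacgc
Ntn5: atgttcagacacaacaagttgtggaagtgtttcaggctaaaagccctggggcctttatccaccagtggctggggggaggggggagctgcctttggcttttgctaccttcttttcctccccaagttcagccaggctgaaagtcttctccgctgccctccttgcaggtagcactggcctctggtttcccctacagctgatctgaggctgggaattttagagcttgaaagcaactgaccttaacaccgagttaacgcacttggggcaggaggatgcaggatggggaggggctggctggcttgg
Efna5: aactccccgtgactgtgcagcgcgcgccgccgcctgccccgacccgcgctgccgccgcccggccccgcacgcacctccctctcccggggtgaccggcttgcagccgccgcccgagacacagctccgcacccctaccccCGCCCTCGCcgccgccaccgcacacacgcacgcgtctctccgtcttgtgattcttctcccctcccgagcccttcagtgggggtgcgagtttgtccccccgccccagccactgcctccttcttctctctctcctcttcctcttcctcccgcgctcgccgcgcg

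An Egr match stood at positions -65 to -57 in Slit2 and -64 to -56 in Sema5a, with the same letters, GCGGGGGCG, and at -112 to -104 on the opposite strand in Efna5. Ntn5 had none, and its promoter held 3 CpG dinucleotides, against 30 in Slit2, 23 in Sema5a and 38 in Efna5. Sema4g also had an Egr match, while Nrp2 and Sema7a had none. None of the 7 promoters held AP-1 (TGANTCA), Tead (GGAATG) or Sox (AACAAT) letters in this window on either strand, so no matches of different motifs overlapped. The 58 of 66 genes with a promoter in the table had 74 promoters, some genes having several starts, and 14 of the 74 held an Egr match. These lay in 14 genes, of which 7 were called, 5 were tested and not called and 2 were not tested. Of all 46 tested axon guidance genes, 54.3% were called. The match was found in 5.55% of all 32851 promoters of this length and in 17.6% of the 8701 with at least 20 CpG dinucleotides, and G-rich letters of this kind are also bound by other zinc-finger factors.

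Of 8 tested plexin and neuropilin genes, 3 rose (37.5%) and 2 fell (25%), against 22.0% and 17.6% of all genes tested. Nrp2, the co-receptor for Sema3f and for lymphatic growth factor, read 9.32, 9.22 and 9.32 in controls and 10.39, 10.69 and 10.68 in mutants. Every mutant array exceeded every control by more than 1. Nrp2 rose by 1.30 (SE 0.093, limma adjusted p = 1.17e-04). Of 2 dimmer tested probes, 1 rose by 0.27 and the other was not called (0.18, adjusted p = 0.0504), and the average of the 3 gave 0.59. Nrp1, the co-receptor for Sema3a and for Vegf, was at 11.73 ± 0.214 in mutants and 11.50 ± 0.153 in controls and was not called on any of its 3 tested probes (adjusted p = 0.196 on the brightest, interval of the difference -0.07 to 0.54).

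Plxnd1, a plexin of vessels and the receptor of Sema3e, read 10.63, 10.72 and 10.59 in controls and 11.36, 11.58 and 11.69 in mutants. It rose by 0.89 (SE 0.093, limma adjusted p = 5.84e-04), and all 3 tested probes were called higher. Beside it, the mean of 7 tested endothelial markers was 10.04 to 10.22 in mutants and 10.15 to 10.39 in controls. Of these markers 0 were called higher and 1, Cldn5, was called lower (-0.88, adjusted p = 0.00183), against 22.0% and 17.6% of all genes tested. Pecam1 was at 10.11 in mutants and 9.86 in controls and Cdh5 at 9.75 and 9.81, and neither was called. Plxna2, a receptor of Sema6a and Sema6b, went from 9.08 ± 0.025 to 9.61 ± 0.047 (difference 0.53, SE 0.050, adjusted p = 3.69e-04).

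The class B plexins answer mostly to class 4 and 5 semaphorins. Of their 3 tested genes 2 fell, against 17.6% of all genes tested. Plxnb3, the receptor of Sema5a, fell from 10.40 ± 0.070 to 9.89 ± 0.109 (difference -0.52, SE 0.073, adjusted p = 0.00215), and Plxnb1, the receptor of Sema4d, from 8.91 ± 0.055 to 8.46 ± 0.058 (-0.45, SE 0.057, adjusted p = 0.00133). Plxnb2 was at 9.86 ± 0.181 in mutants and 9.59 ± 0.070 in controls and was not called (adjusted p = 0.0723), though it was without mutant replicate 1 (0.00299). Plxnc1 was at 8.63 in mutants and 8.60 in controls.

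Among 9 tested Eph receptors, 2 rose and 2 fell (22.2% each), near the 22.0% and 17.6% of all genes tested. Epha5, a receptor of A-type ephrins including ephrin-A5, read 8.97, 8.85 and 9.12 in controls and 9.98, 9.86 and 9.64 in mutants. It rose by 0.85 (SE 0.109, limma adjusted p = 0.00141), and its 3 tested probes rose by 0.33 to 0.99. Ephb1, a receptor of B-type ephrins, read 9.10, 9.06 and 9.38 in controls and 8.42, 8.51 and 8.49 in mutants and fell by 0.70 (SE 0.092, adjusted p = 0.00155). In each of these genes the groups lay apart by more than the spread within either group.

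Ephb4, the Eph receptor of venous endothelium, fell by 0.32 (SE 0.074, adjusted p = 0.0172), a call lost without control replicate 1 (0.0574). Its second probe was also called lower and the dimmest of the 3 was not. Epha2 rose by 0.26 (SE 0.058, adjusted p = 0.0136), a call lost without mutant replicate 2 (0.0506), control replicate 1 (0.0563) or control replicate 2 (0.0519). Ephb6, which lacks kinase activity, was at 8.62 in mutants and 8.83 in controls (adjusted p = 0.104, and 0.0417 with the replicate block). Epha3, Epha4, Epha7 and Epha8 lay between 8.32 and 8.52 on all arrays, with differences of -0.04 to 0.05, and were not called.

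The Robo and Unc5 receptors were not called. Robo1, the receptor of Slit2, was at 8.58 ± 0.051 in mutants and 8.59 ± 0.055 in controls (interval of the difference -0.14 to 0.12), close to the low end of the scale. Robo4, an endothelial Robo, was at 10.24 ± 0.134 and 10.53 ± 0.230 (adjusted p = 0.127), and was called lower with the replicate block (0.0412) and without control replicate 3 (0.0298). Unc5b was at 8.43 and 8.56 (adjusted p = 0.181).

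**Figure D3:**
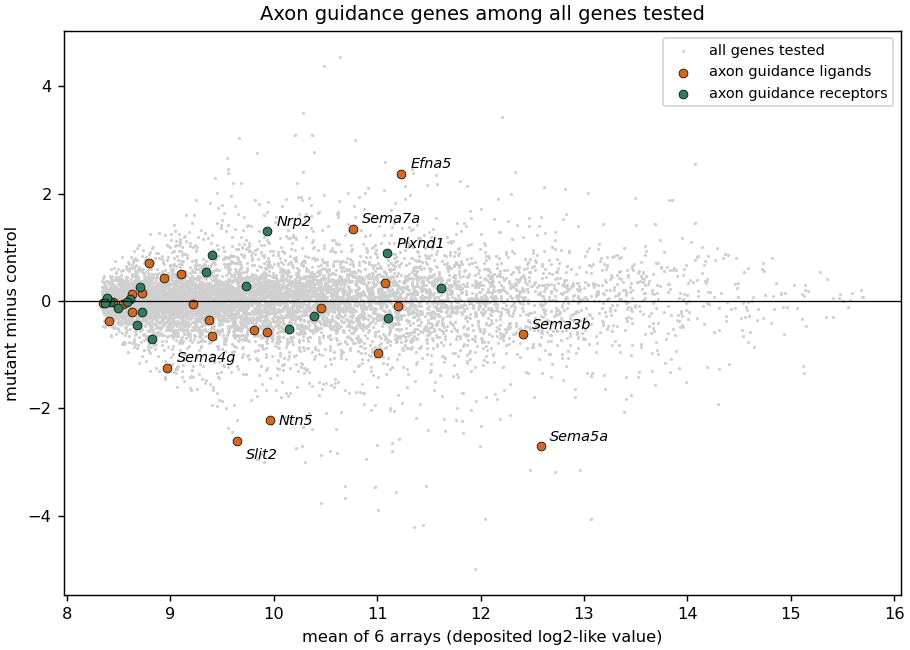
Mean deposited value over the 6 arrays (x axis) against the difference between mutant and control (y axis) for all 10273 genes tested (grey), with axon guidance ligands in orange and receptors in green. Sema5a, Slit2, Ntn5 and Efna5 stand near the edge of the grey cloud at their level, and many receptors lie at the dim end with differences near 0.

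Set side by side, ligands and a receptor known for each moved in different combinations. Efna5 and Epha5 both rose, by 2.37 and 0.85, as did Sema6a and Plxna2, by 0.43 and 0.53. Of the other tested EphA receptors, Epha2 rose by 0.26. Epha3, Epha4, Epha7 and Epha8 were not called, at -0.03, -0.02, 0.05 and -0.04. Sema5a and Plxnb3 both fell, at -2.70 and -0.52. Sema3f and Nrp2 went opposite ways, at -0.57 and 1.30. In the other pairs only 1 partner was called: Slit2 (-2.62) with Robo1 (-0.01), Sema7a (1.35) with Plxnc1 (0.03), Ephb4 (-0.32) with Efnb2 (0.13) and Plxnb1 (-0.45) with Sema4d (-0.03). Ligands bind several receptors, and RNA of a whole nerve does not show which cells carry which partner.

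**Figure D4:**
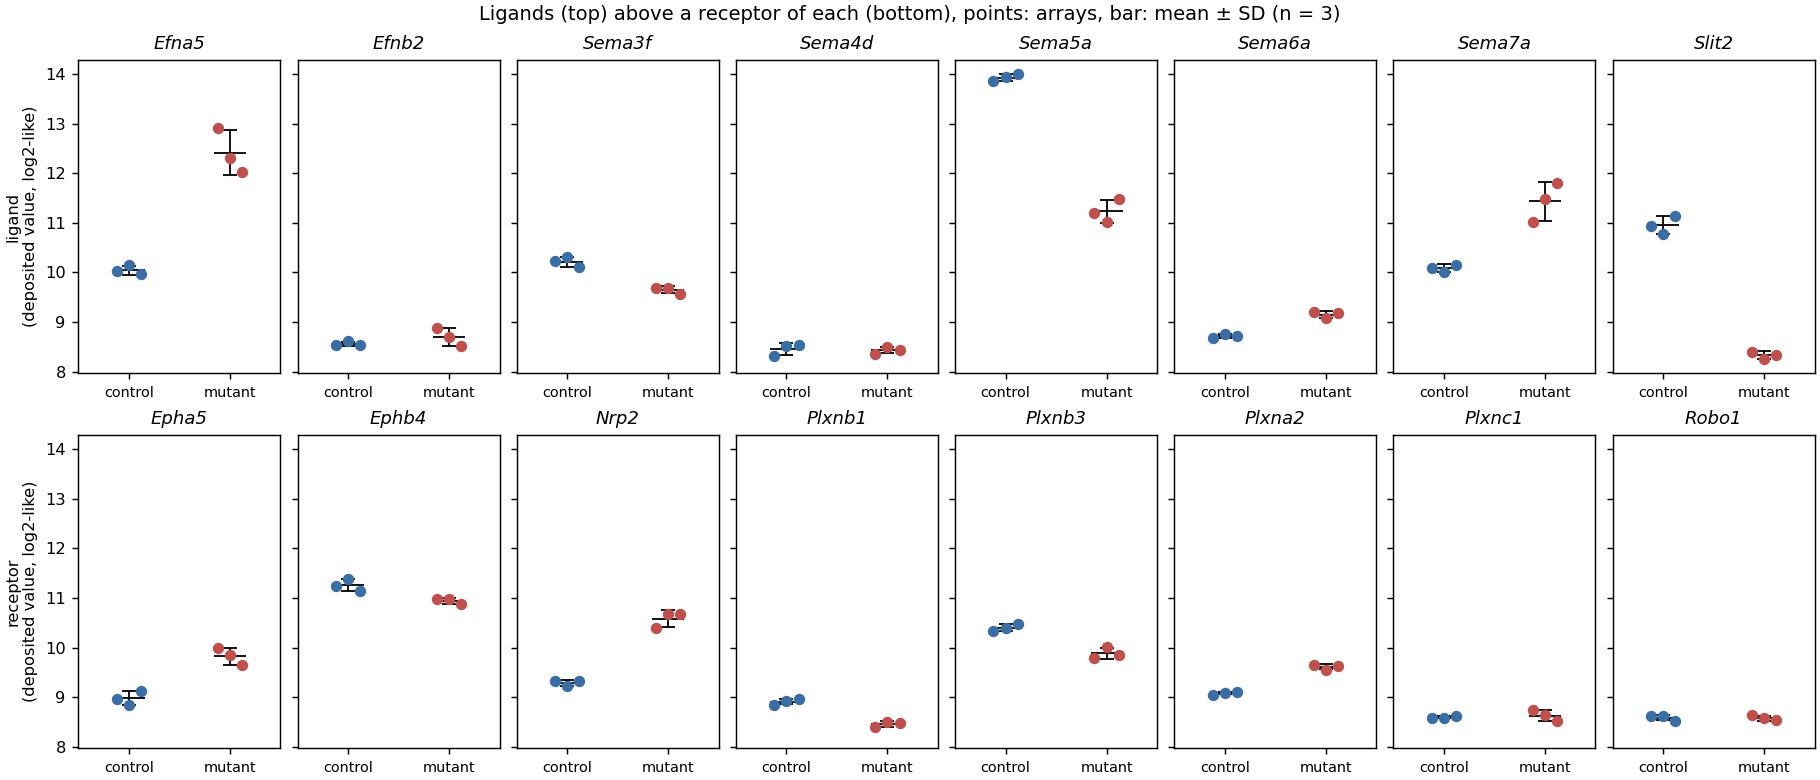
Deposited log2-like values (y axis) on each array for 8 ligands (top row) above a receptor of each (bottom row), with group means ± SD (n = 3). Efna5 with Epha5 and Sema6a with Plxna2 are higher in mutants in both rows, Sema5a with Plxnb3 lower in both, and Robo1 and Plxnc1 overlap between groups beneath ligands that do not.

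Probes of a gene could differ in size of change, and the brightest was not always the one with the largest difference, as in Sema3b and Epha5. Of 18 genes with more than 1 tested probe, 0 had called probes in opposite directions and 5 had both called and uncalled probes. Of the 123 axon guidance probes designed on RefSeq transcripts 65 passed the brightness limit, against 9 of the 49 designed on other sequences. All 3 Plxnd1 probes and 3 of 6 Epha5 probes passed, but 1 of 7 Slit2 probes did.

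**Figure D5:**
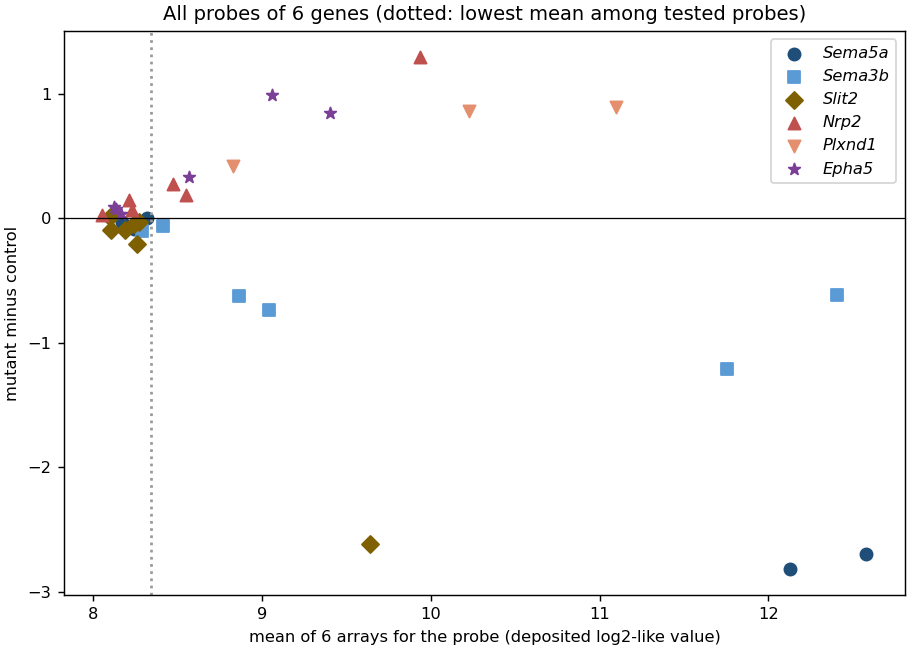
Mean deposited value of a probe over the 6 arrays (x axis) against its difference between mutant and control (y axis) for every probe of Sema5a, Sema3b, Slit2, Nrp2, Plxnd1 and Epha5, with the lowest mean among tested probes, 8.34, dotted. To the right of the dotted line the probes of each of these genes differ in the same direction, from -0.07 to -1.21 in Sema3b and from 0.18 to 1.30 in Nrp2.

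The 20 genes below the tested range were Sema3a, Sema3d, Sema3e, Sema4c, Sema4f, Plxna1, Plxna3, Plxna4, Efna2, Efna3, Epha1, Epha6, Epha10, Ephb3, Slit1, Robo2, Ntng2, Unc5a, Unc5c and Unc5d. Their brightest probes had means of 8.05 to 8.31 over the 6 arrays, at which no statement on their expression is made. With every probe of the array tested, 10 of the 66 genes were called higher and 16 lower on their brightest probes, against 19.9% of 19057 genes (11.2% higher and 8.63% lower). Among the 20 genes, Sema3e alone was called on its brightest probe, and it was lower, at 8.18 ± 0.069 in mutants and 8.39 ± 0.068 in controls (difference -0.21, SE 0.050, limma adjusted p = 0.0476). Its dimmer probes were not called in that test, at -0.03, 0.03 and -0.05.

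Guidance receptors act on the cytoskeleton through co-receptors, collapsin response mediators (the Dpysl family) and kinases. Of 57 such signalling partner genes on the array 41 were tested, 12 rose and 6 fell (43.9% called, against 39.6% of all genes), with a median of 0.05. Flrt3, a membrane protein that binds Unc5 receptors and Robo1, read 9.86, 9.74 and 9.78 in controls and 12.01, 11.35 and 10.96 in mutants and rose by 1.65 (SE 0.245, adjusted p = 0.00269). Gpc1, a heparan sulphate proteoglycan that binds Slits, rose by 1.42 (SE 0.101, adjusted p = 1.16e-04), from 12.79 ± 0.159 to 14.21 ± 0.128. Rgma, the GPI-anchored ligand of the netrin receptor neogenin, rose by 1.35 (SE 0.126), from 10.67 ± 0.107 to 12.02 ± 0.239, while neogenin itself (Neo1) was at 9.61 in mutants and 9.73 in controls and was not called (adjusted p = 0.236).

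The largest falls among the partners were in intracellular signalling genes. Chn2, a Rac GTPase-activating protein of the chimaerin family, of which a member acts downstream of EphA4, read 10.41, 10.30 and 10.46 in controls and 8.60, 8.53 and 8.49 in mutants. It fell by 1.85 (SE 0.063, limma adjusted p = 7.02e-06). Dpysl4, a collapsin response mediator, fell by 1.71 (SE 0.084), from 11.01 ± 0.120 to 9.31 ± 0.104. Limk2, a kinase that inactivates cofilin, fell by 1.03 (SE 0.072), and the related Limk1 rose by 0.61 (SE 0.072). Dpysl3, of the same family as Dpysl4, rose by 1.13 (SE 0.153), and Dpysl2 was not called (adjusted p = 0.0914).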

How the data were processed

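Total RNA of sciatic nerve was hybridised to Illumina Mouse WG-6 version 2 bead arrays. The authors deposited 1 normalized log2-like value per probe and array, and per the labels (the series' design text) limma and RMA normalization were used, and lumi 1.8.3 is listed in the submitters' processing notes. No source used here says how background was treated or if the log2 scale was variance-stabilised. All 6 columns hold the same distribution, and no further normalization was applied.

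The design text calls the source tissue-cultured cells, against sciatic nerve in every sample's labels, which are followed here. It also states that 18420 probes were kept by present calls. Since those calls were not used here, the tests took an equal number of probes, 18420, ranked by brightness averaged across the 6 arrays (lowest mean 8.34). Symbols came from the platform annotation, in which 34885 probes had 1 symbol, 18 several and 10378 none, and all 66 symbols of axon guidance genes matched the RefSeq gene table (GRCm38.p6) by gene identifier. The fit of mutant against control used limma (version 3.58.1, R version 4.3.3; lmFit, eBayes, 2-sided, 4 residual and 2.63 prior degrees of freedom), with Benjamini-Hochberg adjustment over all tested probes and a call at an adjusted p under 0.05. A gene was represented by its brightest tested probe. The number of arrays limits the precision.

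The members, the partner and marker lists and the ligand-receptor pairs were chosen with earlier results of these data known. The rule for named genes takes members called with a difference of at least 1, then in each family the 2 other called genes with the largest difference and the 2 brightest uncalled ones, and the 3 largest rises and falls among called partners. All other tested members are given so that each is accounted for. Cldn5, Pecam1, Cdh5, Sox10, Erbb3, S100b, Neo1, Limk1, Dpysl2, Dpysl3 and Sema3e were named after their values were seen.

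The titles number the arrays 1 to 3 in each group. Same-numbered arrays deviated together from their group means, though weakly (correlations 0.17, 0.15 and 0.22 over the tested probes). Values for differently numbered arrays are not given beside them, so whether the numbers pair the samples is not known. The main fit did not use the numbers and treated the samples as unpaired. A fit with the replicate number as a block was run as an alternative. The other alternatives were 2 brightness filters, a trended robust prior, centred arrays, averaged probes and leaving out each array. The fit was tested on simulated data before use.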

Additional observations from a re-analysis of the deposited data

Results flagged for a closer look

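Sema4f, a transmembrane semaphorin, lay below the tested range on all 4 of its probes, so the comparison did not use it. With all probes of the array tested, both RefSeq-derived probes were higher in mutants than in controls. The dimmer had 8.30 ± 0.012 in mutants and 8.09 ± 0.0073 in controls (SD, n = 3 each), higher by 0.22 (SE 0.017) with an adjusted p of 9.42e-04 in limma. The other had 8.32 ± 0.030 and 8.17 ± 0.034, a difference of 0.14 (SE 0.027, adjusted p = 0.0208). The remaining probes, designed on other sequences, were not called, at -0.05 for the brightest of the 4 and 0.001 for the dimmest. All of these values lie close to the array median of 8.24, where the size of a change in RNA cannot be read from the difference.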

How the results depend on the processing

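With only the brighter 50% of the tested probes kept, 24 axon guidance genes remained in the test and 6 were called higher and 11 lower, against 10 and 15, since fewer genes were tested; 45.7% of all genes in that test were called, against 39.6%. No axon guidance gene lost a call under that setting. With the replicate block, 11 were called higher and 17 lower, with 0 calls lost and 3 gained (Sema4b, Ephb6 and Robo4), and the block changed no other call among these genes, while the share of all genes called was 38.2%. Leaving out 1 array at a time gave 9 to 12 higher and 13 to 17 lower, with 28.1% (without control replicate 1) to 45.4% (without mutant replicate 1) of all genes called. Of the 25 called genes, 22 kept their call and direction under every alternative that tested them, and the others were Slit3, Epha2 and Ephb4. The 7 genes with differences of at least 1 were among the 22, although averaging their tested probes lowered the differences of Nrp2 to 0.59 and Sema7a to 0.86. Of the partner genes, 11 to 14 were called higher and 4 to 7 lower when 1 array was left out, and 13 and 5 with the replicate block. Signal near the low end of the scale limits what can be said of the 20 untested genes and of Slit2 and Sema4g in mutants.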
